A study of Rattus norvegicus with 10 samples.

Results

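Voltage-gated sodium channels were examined in spontaneously hypertensive rats (SHR) and Wistar-Kyoto rats (WKY). The tissue was the nucleus tractus solitarii (NTS), where the sensory fibres from baroreceptors and viscera reach the brainstem. The genes were followed through all probe sets whose platform annotation gives Scn1a, Scn2a, Scn3a, Scn8a or Scn9a (alpha subunits) or Scn2b, Scn3b or Scn4b (beta subunits) as the only gene symbol. These 8 genes had 10 of the 31042 probe sets of the array, 5 for alpha and 5 for beta subunits, and 8 of these were among the 18846 that passed the filter on dim signals and were tested. SHR become hypertensive as they grow up, while WKY keep a normal blood pressure and serve as their comparison strain. All animals were males aged 10 to 13 weeks, no treatment is named for either strain, and 5 Affymetrix Rat 230 2.0 arrays were hybridised per strain. Arrays are called independent biological replicates in the study's design, but 5 animals are mentioned for each sample, and an array may hold 1 animal or a pool. The p-values therefore measure the spread between these samples.

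The alpha subunit forms the pore of the channel and opens on depolarisation to carry the rising phase of the action potential. Beta subunits are single-span membrane proteins with an immunoglobulin-like outer domain, which alter gating, bring alpha subunits to the surface and act as adhesion molecules. Those encoded by Scn2b and Scn4b are joined to the alpha subunit by a disulfide bond, whereas that of Scn3b is held without one. In the NTS these channels set how second-order neurons fire in response to afferent input.

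The signal is the linear array value of a probe set after the authors had scaled every array to the same trimmed mean. Signals of different probe sets are not set against each other here, since probe sets differ in how they bind. The median signal of an array lay between 44.2 and 49.8 for SHR and between 39.6 and 45.7 for WKY. The ratio of 3' to 5' Gapdh control signals, a sign of RNA quality, lay between 1.1218 and 1.3423 for SHR and between 1.0743 and 1.1999 for WKY. That of beta-actin was larger, between 2.26 and 3.92 for SHR and between 2.64 and 3.54 for WKY. SHR 3 had the highest ratio for both controls (1.3423 and 3.92). The part of RNA quality in the differences given here was not tested. On the log2 scale, 3 of the 5 SHR arrays had a higher mean correlation with the WKY arrays than with the other SHR arrays. Between the strains 803 of 18846 probe sets passed the test (4.26%), with 388 calls for higher SHR signal (2.06%) and 415 for lower SHR signal (2.2%). A call here is a limma p below 0.05 after Benjamini-Hochberg adjustment over all tested probe sets.

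Among the sodium channel probe sets, that of Scn2b was lower in SHR, and the remaining 7 tested did not pass. The count of 1 in 8 stands beside a background of 4.26% called, and the count of 1 lower beside 2.2%. Of the 8 differences, 4 were below 0 and 4 above 0, and their median was 0.0036 on the log2 scale against 0.016 for all tested probe sets. Their median size without regard to sign was 0.075, against 0.12 for all tested probe sets. All 8 also passed a filter at the 60th percentile, whereas the background holds dimmer probe sets. With that filter the median difference of all probe sets was -0.011. The part of signal level in these medians was not tested. In bulk tissue, fewer cells of a type and less RNA per cell cannot be told apart, and this holds for every difference given here.

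**Figure D1:**
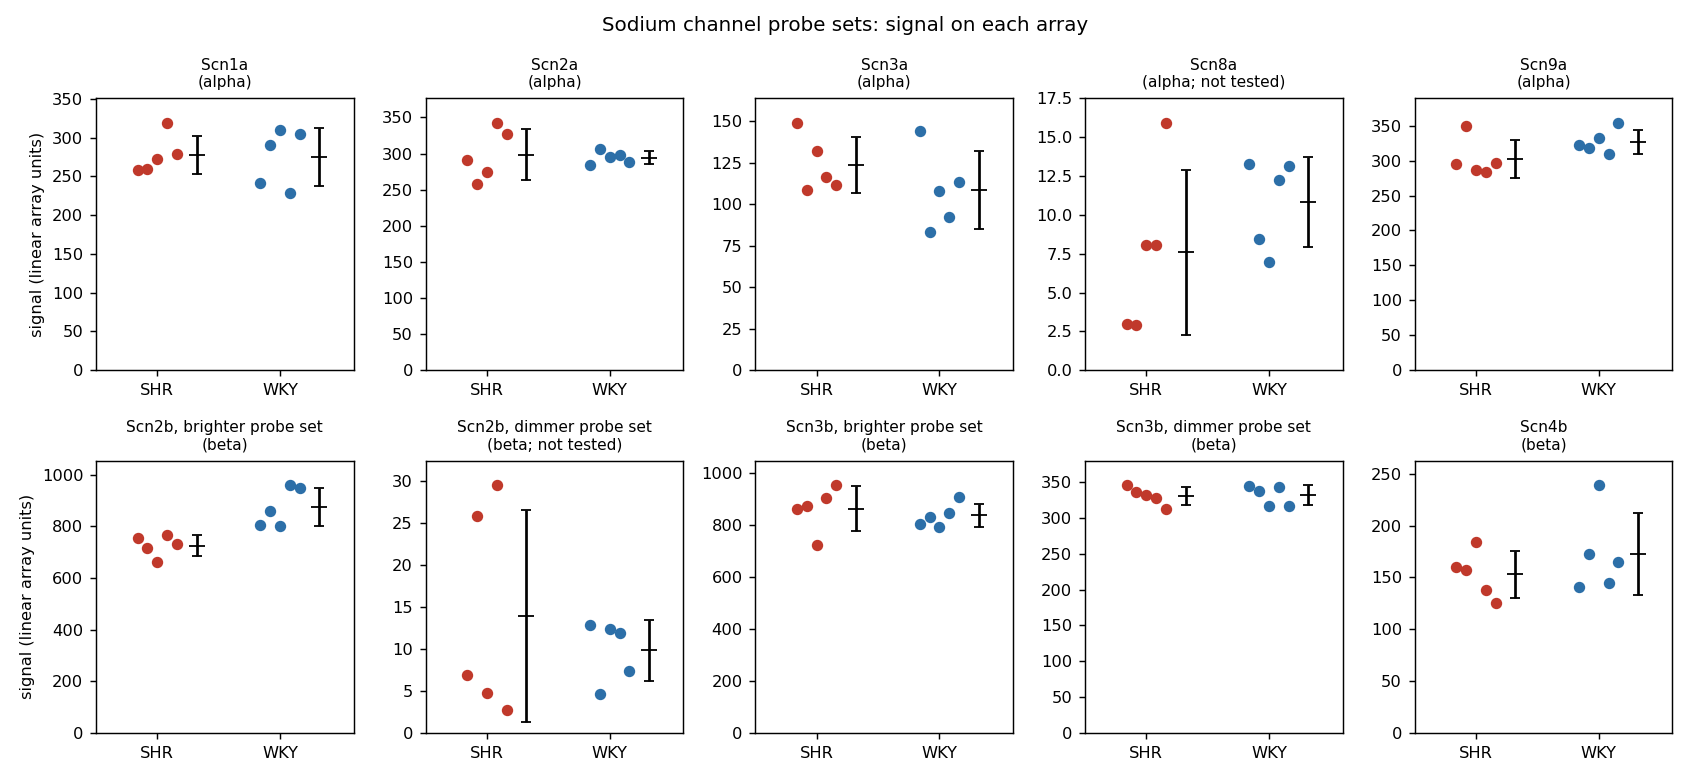
Signal (linear array units, each panel from 0) of the 10 sodium channel probe sets on the 5 SHR (red) and 5 WKY (blue) arrays, with the mean and SD beside the points. The strains separate without overlap for the brighter probe set of Scn2b alone, between 662 and 766 in SHR and between 802 and 959 in WKY.

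Scn2b encodes the beta2 subunit, which raises the number of channels at the cell surface and is cut by the secretase BACE1. Its brighter probe set had signals of 755, 715, 662, 766 and 731 on the SHR arrays. On the WKY arrays it had 807, 859.7, 802, 959 and 948. Every SHR value lay below every WKY value, so the strains did not overlap, which was the case for 6.13% of all tested probe sets, and in this direction for 2.91%. The mean was 726 ± 41.1 in SHR and 875 ± 75.2 in WKY (SD, n = 5 each), 1.199-fold lower in SHR with a 95% confidence interval from 1.09-fold to 1.32-fold. The log2 difference was -0.26 ± 0.065 (SE; limma, adjusted p = 0.0298). Folds and log2 differences are taken from log2(signal + 16).

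The other probe set of Scn2b carried almost no signal. It had 6.93, 25.8, 4.76, 29.5 and 2.78 in SHR and 12.9, 4.65, 12.4, 11.9 and 7.43 in WKY, below the 40th percentile of the array on all 10 arrays. The strains overlapped, and this probe set was not tested. The difference of Scn2b thus rests on 1 probe set.

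The Scn2b signal was low on arrays with a high median signal, though not in strict order. The lowest Scn2b signal, 662, was on SHR 3, the array with the highest median signal (49.8), and the highest signals, 959 and 948, were on WKY 4 and WKY 5, the arrays with the lowest medians (39.9 and 39.6). At nearly equal medians of 44.2, SHR 5 had 731 and WKY 2 had 859.7, and WKY 1, with a median of 44.6, had 807. With a covariate for array median signal beside strain, the log2 difference was -0.11 ± 0.068 (limma, adjusted p = 0.624), whereas quantile normalization in place of the covariate left -0.22 ± 0.051 (adjusted p = 0.0209). The array medians differed between the strains in range, as given above. The covariate therefore shares variation with strain, and the part of each was not tested. Leaving out SHR 2, SHR 3, WKY 2, WKY 4 or WKY 5 took the adjusted p to 0.0674, 0.0645, 0.0530, 0.0992 and 0.0935, each above the threshold, while the difference stayed between -0.29 and -0.23 over all 10 omissions. Without SHR 2 and SHR 3 together it was -0.21 ± 0.071 (adjusted p = 0.142). The exact two-sided permutation test gave Scn2b a p of 0.0079, the smallest that the 252 assignments of the arrays allow, and an adjusted p of 0.129, with 18.4% of all tested probe sets at an unadjusted p under 0.05 by this test.

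**Figure D2:**
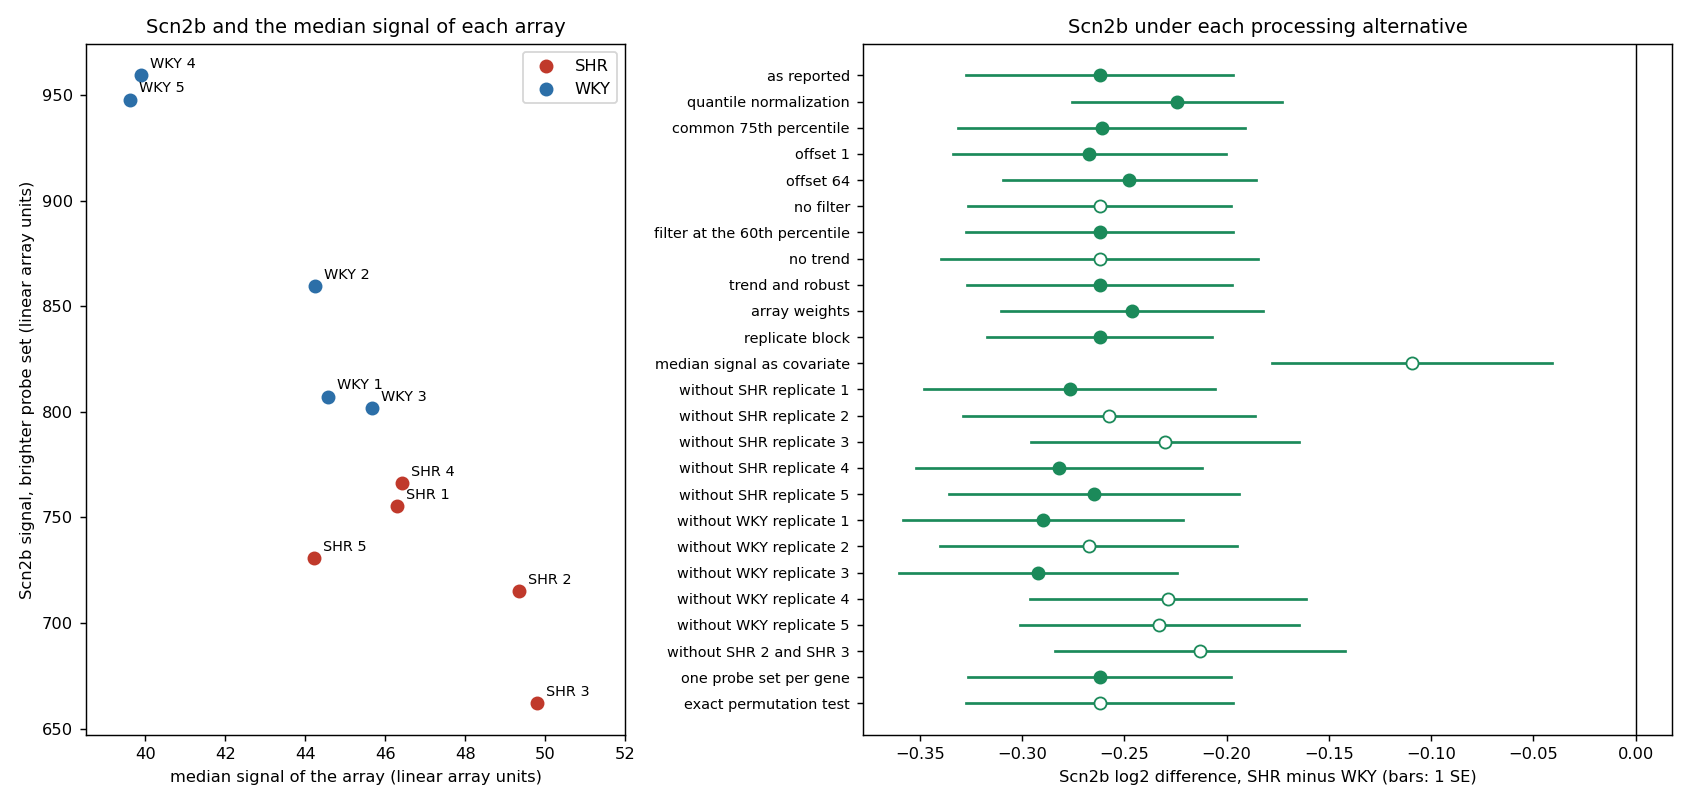
Left: Scn2b signal of the brighter probe set against the median signal of each array, both in linear array units, for SHR (red) and WKY (blue); WKY 4 and WKY 5 are lowest in median and highest in Scn2b. Right: the Scn2b log2 difference, SHR minus WKY, with 1 SE under each alternative; filled points passed the adjusted threshold and open points did not, and every value lies below 0, from -0.29 to -0.11.

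Levels of cell type markers were taken on the same arrays as the Scn2b result. The counts of markers stand beside a background over all tested probe sets of 2.06% called higher, 2.2% called lower, 46% with a difference below 0 and 21% with an unadjusted p under 0.05. Of 14 probe sets of 10 neuronal markers, 1 was higher in SHR (Snap25, a synaptic SNARE protein; log2 difference 0.33 ± 0.091, limma adjusted p = 0.0480) and 0 lower. The median of the list was 0.096. Its summed signal lay between 15676 and 16642 for SHR and between 13908 and 15733 for WKY. Within this sum, Snap25 alone had means of 3739 in SHR and 2952 in WKY. Differences were below 0 on 5 of the 14, and 5 had an unadjusted p under 0.05 in limma. Of the latter, Snap25 and probe sets of Nefm (0.19), Nefl (0.16) and Nefh (0.22) were above 0, and 1 of Syn1, a synaptic vesicle protein, was below 0. This Syn1 probe set had the lowest difference of the list, -0.28 ± 0.11, about the size of the Scn2b difference, and did not pass (limma, adjusted p = 0.151). The other Syn1 probe set had -0.12 ± 0.11 (limma, adjusted p = 0.588). Of 5 tested markers of the NTS and dorsal vagal complex, all had differences below 0, 4 had an unadjusted p under 0.05 and 1 passed, Prlh, the precursor of prolactin-releasing peptide (-0.42 ± 0.11; limma adjusted p = 0.0379). Their summed signal was 1316 to 1484 in SHR and 1520 to 2370 in WKY, and the median difference of the list was -0.27, close to that of Scn2b. Th and Dbh, enzymes of the noradrenergic neurons of the nucleus, had 416 ± 19.1 and 272 ± 28.7 in SHR and 477 ± 67.8 and 334 ± 51.1 in WKY. Their differences of -0.18 ± 0.081 and -0.27 ± 0.095 did not pass (limma, adjusted p = 0.205 and 0.114). Prlh, Th and Dbh were each highest on WKY 1 (1003, 582 and 393), where Scn2b had 807. On WKY 4, with the highest Scn2b signal (959), they had 568, 464 and 310. On WKY 5, with the next highest (948), they had 715, 493 and 377. Of 8 microglia probe sets, 3 were called lower in SHR (C1qa, C1qb and 1 of Aif1), with sums of 1033 to 1172 and 1306 to 1465. In limma 5 had an unadjusted p under 0.05. Among them was the other Aif1 probe set, at 0.51 ± 0.18 (adjusted p = 0.124) against -0.52 ± 0.089 on the called one. Of 12 oligodendrocyte probe sets, 2 were called lower, both of Mobp, a myelin protein, with sums of 8626 to 10746 and 8046 to 10544. Another Mobp probe set differed by -0.022 (limma, adjusted p = 0.925). In limma 3 had an unadjusted p under 0.05, the 2 of Mobp and 1 of Mbp, which was above 0 (0.28 ± 0.094, adjusted p = 0.0992). Of the other lists, choroid plexus markers were higher on 2 of 5 probe sets, those of Enpp2 and Sostdc1 (3 at that level). Their sums were 966 to 1115 in SHR and 724 to 983 in WKY, of which Enpp2 alone had means of 748 and 612. Ttr, of the same list, had 58.1 ± 20.4 and 67.0 ± 66.0 (log2 difference 0.068 ± 0.32, limma adjusted p = 0.930). None of the 11 probe sets of astrocytes, 2 of oligodendrocyte precursors, 6 of endothelium, 4 of cholinergic motor neurons and 7 of cerebellum passed in limma, where 1, 0, 1, 0 and 2 had an unadjusted p under 0.05. No marker was at 0 on all arrays. The part of these markers in the Scn2b difference was not tested.

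Scn4b, the neighbour of Scn2b among the protein-coding genes of the RefSeq table, encodes the beta4 subunit, whose inner end can block the open channel and give a resurgent current. Its signals were 160.4, 157, 184, 138 and 125 in SHR and 141, 172, 239, 145 and 165 in WKY. The strains overlapped. Only WKY 3 stood above every SHR array, and SHR 4 and SHR 5 lay below every WKY array. The mean was 153 ± 22.7 in SHR and 172 ± 39.4 in WKY, and the log2 difference of -0.14 ± 0.12 did not pass (limma, adjusted p = 0.528). Its 95% interval ran from -0.40 to 0.11, so differences as large as that of Scn2b lay within it. Without WKY 3 the difference was -0.030 (adjusted p = 0.897), and with the median-signal covariate it was larger, -0.40 ± 0.14, and did not pass either (adjusted p = 0.269).

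The 250 bases upstream of the annotated starts of these neighbouring genes are shown because Scn2b is the member that passed and Scn4b the beta subunit beside it with a mean of the same sign. They come from RefSeq on GRCr8, the rat reference assembly, both on the plus strand: chr8:54322133-54322382 for Scn2b and chr8:54343623-54343872 for Scn4b. The reference strain is neither SHR nor WKY, and these stretches were not read in either.

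Scn2b: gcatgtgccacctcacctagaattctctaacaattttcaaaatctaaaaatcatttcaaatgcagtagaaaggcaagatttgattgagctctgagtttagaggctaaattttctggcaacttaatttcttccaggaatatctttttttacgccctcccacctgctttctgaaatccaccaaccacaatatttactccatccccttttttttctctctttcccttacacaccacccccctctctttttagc
Scn4b: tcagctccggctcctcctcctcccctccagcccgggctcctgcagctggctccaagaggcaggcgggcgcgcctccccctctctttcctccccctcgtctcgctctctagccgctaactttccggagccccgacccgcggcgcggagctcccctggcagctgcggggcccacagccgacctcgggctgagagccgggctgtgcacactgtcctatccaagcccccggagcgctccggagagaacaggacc

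The Scn2b stretch was poor in G and C (38.8%) and the Scn4b stretch rich (71.6%). Neither held the TATA box TATAAA, the box CCAAT, the GC box GGGCGG, the cyclic AMP response element TGACGTCA or the REST half-site TTCAGCACC (the left part of the element bound by the repressor REST) on either strand, so no letters are in capitals. Of the 33469 upstream stretches of this length in the table, 12.9%, 34.0%, 30.5%, 1.59% and 0.305% held them. The absence of these letters says nothing about the factors that bind there. Of the 8 members, 6 had such a stretch in the table.

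Scn3b, the beta3 subunit, which is most abundant in the developing brain, was measured by 2 probe sets. Neither passed. The brighter had a mean of 862 ± 86.1 for SHR and of 836 ± 44.2 for WKY, with a log2 difference of 0.039 ± 0.0695 (limma, adjusted p = 0.795). This difference was 0.0020 without SHR 5, 0.0999 without SHR 3 and 0.19 with the median-signal covariate (limma, adjusted p = 0.376). SHR values ran from 722 on SHR 3 to 952 on SHR 5 and enclosed those of WKY, which ran from 793 to 906. The dimmer probe set had 313 to 346 in SHR and 317 to 345 in WKY. Its log2 difference was -0.0047 ± 0.058 (limma, adjusted p = 0.973), with a 95% interval from -0.13 to 0.12. The spread of this probe set within a strain was 3.69% of the mean in SHR and 4.18% in WKY. SHR 5 was the highest array on the brighter probe set and the lowest on the dimmer, so the probe sets did not follow each other across arrays.

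None of the alpha subunits passed in limma (0 of 4 tested at an adjusted p below 0.05, and 0 at an unadjusted p under 0.05). The background is 4.26% and 21% of all tested probe sets at these thresholds. Scn1a, the channel of fast-spiking inhibitory neurons, had 259, 259.6, 273, 319 and 279 in SHR and 241, 291, 310.2, 228 and 305 in WKY. The WKY values spread to both sides of nearly all SHR values. The log2 difference was 0.020 ± 0.088 (adjusted p = 0.924), with a 95% interval from -0.17 to 0.21, that is from 0.89 to 1.15 times the WKY signal.

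Scn2a, found along unmyelinated axons and the initial segment of excitatory neurons, had 291, 257, 274, 343 and 327 in SHR and 285, 307, 296, 298 and 288 in WKY. The means of 299 ± 35.7 and 294 ± 8.61 differed by 0.012 ± 0.075 on the log2 scale (adjusted p = 0.948; 95% interval -0.15 to 0.17). SHR arrays lay on both sides of the WKY range, 2 below it and 2 above it, and the SD was 12.0% of the mean in SHR and 2.92% in WKY. Whether the strains differ in spread was not tested.

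Scn3a, which is most abundant before birth and falls as the brain matures, had 149, 109, 132, 116 and 112 in SHR and 144, 83.1, 108, 92.4 and 113 in WKY. It had the largest positive difference of the members, 0.18 ± 0.12, which did not pass (adjusted p = 0.410), and its interval from -0.073 to 0.43 was the widest of the alpha subunits. The highest values of both strains, 149 on SHR 1 and 144 on WKY 1, were close together, and the lowest were WKY 2 and WKY 4. The difference was 0.10 without WKY 2, 0.12 without SHR 1 and 0.28 without WKY 1 (limma, adjusted p = 0.661, 0.629 and 0.175).

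Scn9a, known from nociceptors and autonomic neurons, had 295, 349, 286, 284 and 296 in SHR and 322, 318, 332, 309 and 354 in WKY. On 4 of the 5 SHR arrays the signal lay below every WKY array, and SHR 2 lay within the WKY range. The means were 302 ± 27.0 and 327 ± 17.3, and the log2 difference of -0.11 ± 0.068 did not pass (adjusted p = 0.364; 95% interval -0.26 to 0.031). Without SHR 2 it was -0.16 (adjusted p = 0.187).

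Scn8a, the main channel of mature nodes of Ranvier, was not tested. Its probe set had 2.97, 2.91, 8.04, 8.05 and 15.9 in SHR and 13.3, 8.46, 6.97, 12.2 and 13.1 in WKY, below the 40th percentile on all 10 arrays. The strains overlapped. Such a signal describes this probe set and gives no level of the transcript.

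**Figure D3:**
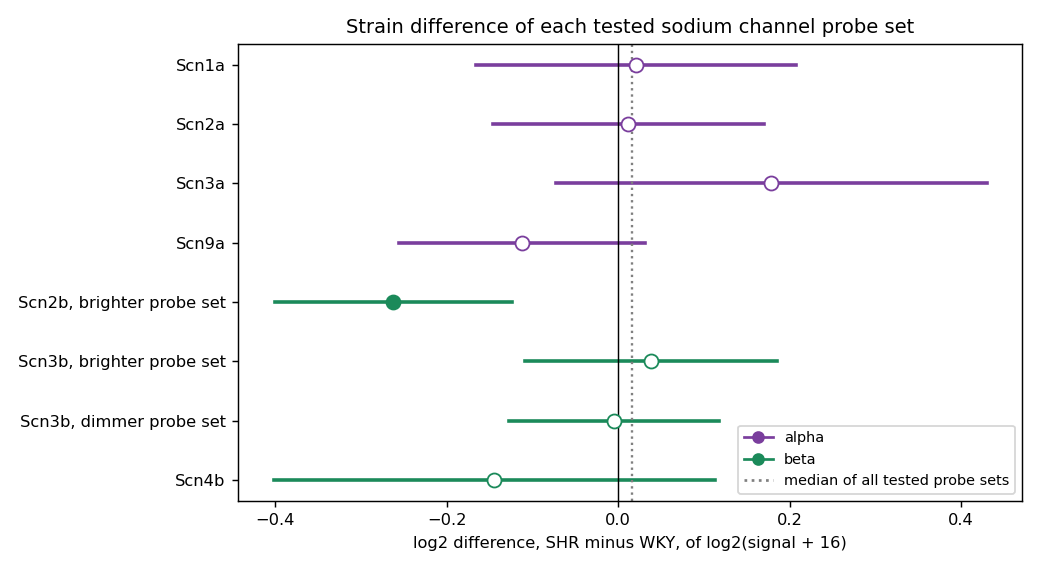
Log2 difference, SHR minus WKY, of log2(signal + 16) for the 8 tested sodium channel probe sets with 95% confidence intervals; the filled point (Scn2b) passed the adjusted threshold and open points did not. The alpha subunits (purple) run from -0.11 to 0.18 and the beta subunits (green) from -0.26 to 0.039, around a median of 0.016 for all tested probe sets (dotted line).

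Alpha and beta subunits were compared by their counts and medians, without a test, since their choice was made with results of these data known. Of the 4 tested alpha probe sets, 0 passed, 3 had differences above 0 and the median was 0.016. Of the 4 tested beta probe sets, 1 was lower, 3 had differences below 0 and the median was -0.074. Over all tested probe sets, 46% of the differences were below 0. With the brighter probe set alone standing for Scn3b, the beta median was -0.14. The alpha median minus the beta median was 0.091. On single arrays, the mean of the alpha probe sets minus that of the beta probe sets, each probe set centred on its own mean, lay between -0.018 and 0.11 for SHR and between -0.18 and 0.068 for WKY. The strains overlapped, through SHR 2 at the low end of SHR and WKY 1 at the high end of WKY.

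Across the arrays the members did not rise and fall as a block. On each SHR array 3 or 4 of the 8 probe sets were above their own mean, and on the WKY arrays 3 to 6. SHR 4 was the highest array for both Scn1a and Scn2a (0.20 above the mean on the log2 scale for each) and the lowest for Scn9a (-0.14). WKY 3 was the highest for Scn4b (0.53) and near the mean for Scn2a (0.00012) and Scn2b (0.011). Among the protein-coding genes of the RefSeq table, Scn3a and Scn2a are neighbours, and so are Scn1a and Scn9a. Neighbours did not share the sign of their departures on all arrays: on SHR 1, Scn3a was 0.34 above and Scn2a 0.020 below its mean (-0.020).

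**Figure D4:**
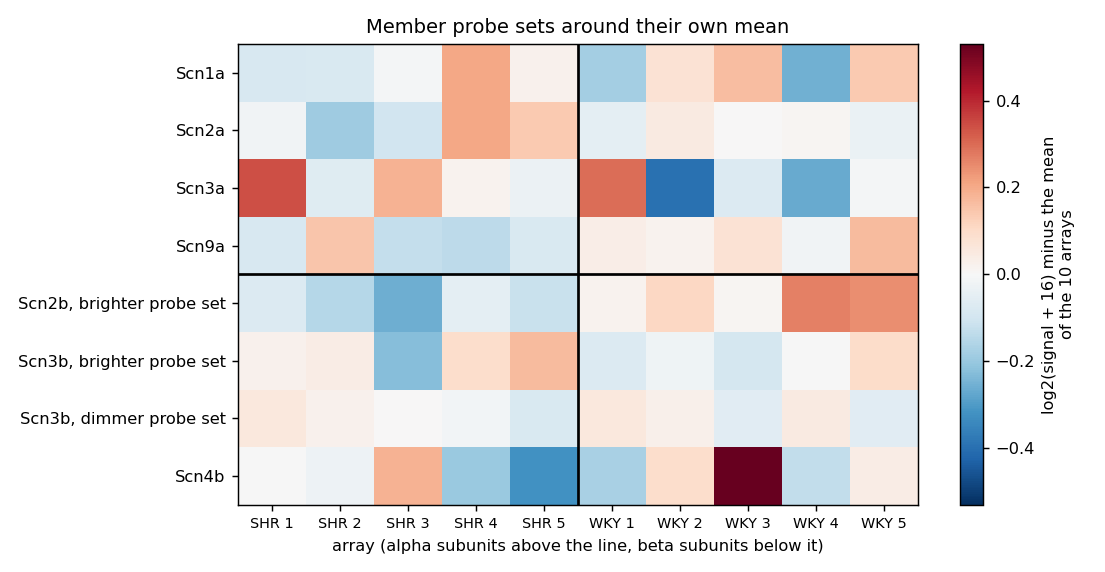
Departure of each tested sodium channel probe set from its own mean over the 10 arrays, in log2(signal + 16), with SHR arrays left and WKY arrays right of the vertical line and alpha subunits above the horizontal line. The Scn2b row is below 0 on all SHR arrays and above 0 on all WKY arrays; no other row is split by strain in this way.

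The 5 probe sets of other genes whose profile over the 10 arrays lay nearest that of Scn2b were named by the smallest root mean square difference of centred log2 values among 13954 candidates. They were those of Tcaim, a mitochondrial protein (0.035), Snx27, a sorting nexin of endosomes (0.046), Sybu, an adaptor of axonal transport (0.048), Slc25a33, a mitochondrial nucleotide carrier (0.048), and Cfdp1, a chromatin protein (0.052). The Scn2b profile itself had a root mean square departure of 0.16 from its mean. Of the 5, Cfdp1 passed the test, with 332 ± 13.0 in SHR and 412 ± 16.8 in WKY (log2 difference -0.30 ± 0.057; limma, adjusted p = 0.00582). The other 4 had differences from -0.26 to -0.22 and adjusted p from 0.0547 to 0.115. All 5 were picked for a profile near that of Scn2b, in which the strains did not overlap. Lower signal in SHR therefore follows from the choice, and the tests of these 5 are no separate evidence on the strains. For the same reason, the 4.26% called among all tested probe sets is no fair background for them.

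Genes that act with sodium channels were followed in lists chosen for function. Among other sodium channel genes (other alpha subunits, the leak channel Nalcn with its partners, and the epithelial channel), 1 of 7 tested probe sets was higher and 0 lower in SHR, against 2.06% and 2.2% of all tested probe sets. The higher one was Unc80, the scaffold that holds the leak channel complex together, with 411, 462, 422, 439 and 439.5 in SHR and 358, 335, 311, 318 and 379.5 in WKY. The strains did not overlap, and the log2 difference was 0.34 ± 0.065 (limma, adjusted p = 0.0055). Another probe set of Unc80 was too dim to test (means of 1.98 in SHR and 3.52 in WKY), so this call rests on 1 probe set. The pore subunit Nalcn itself had 537 in SHR and 528 in WKY (0.024 ± 0.055; limma, adjusted p = 0.846). All 7 differences of this list were above 0, where 46% of all tested probe sets were below 0, and their median was 0.16. The tested probe sets of Scnn1b and Scnn1g and 1 of Unc79 were dim (means of 71.4, 43.0 and 51.7 in SHR, and 54.2, 36.8 and 47.7 in WKY). Over all probe sets the median difference was 0.046 without the filter on dim signals and -0.011 with a filter at the 60th percentile. The 46% covers all signal levels, and the part of signal level in this list was not tested. Scn10a, Scn11a and Scn4a had probe sets too dim to test, and Scn7a, a sodium sensor of glia, differed by 0.068 (limma, adjusted p = 0.768).

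Among scaffold and adhesion proteins of the axon initial segment and the node of Ranvier, 1 of 22 tested probe sets was higher and 1 lower (2.06% and 2.2% of all tested), both of Nrcam, an adhesion molecule of both sites. On 1 probe set the Nrcam mean was 163 ± 12.7 for SHR and 229.7 ± 21.2 for WKY, without overlap (log2 difference -0.46 ± 0.078; limma, adjusted p = 0.00232). On another it had 201 ± 16.8 and 157 ± 15.0 (0.33 ± 0.079; limma, adjusted p = 0.0254), and on the third 244 and 245 (-0.0049; adjusted p = 0.976). The probe sets of this gene thus disagree in direction. The higher call was lost in 5 of 10 omissions of 1 array, those of SHR 2, SHR 5, WKY 1, WKY 3 or WKY 4 (adjusted p up to 0.0836). Ank3, the ankyrin that anchors sodium channels at the initial segment, had differences of -0.29 and -0.17 on 2 probe sets that did not pass (adjusted p = 0.131 and 0.447). The median of the list was -0.014.

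Of 25 tested probe sets of cytoplasmic partners and modulators, 1 was lower and 1 higher, against 2.2% and 2.06% of all tested probe sets. Fgf12, a fibroblast growth factor homologue that binds the inner end of the alpha subunit and shifts its inactivation, had 88.5, 67.5, 76.5, 125 and 96.6 in SHR and 153, 158, 166, 164 and 144 in WKY. The strains did not overlap, and the log2 difference was -0.72 ± 0.11 (limma, adjusted p = 0.00118). Another probe set of Fgf12 had 208 in SHR and 197 in WKY and differed by 0.066 (adjusted p = 0.688), so that this gene too disagreed between probe sets. Fgf12 also had a probe set too dim to test (means of 29.5 in SHR and 19.9 in WKY). Calm2, a calmodulin gene, was higher by 0.26 ± 0.068 (limma, adjusted p = 0.0442), with strains that overlapped. This call was lost in 8 of 10 omissions of 1 array (all but SHR 1 and WKY 3, with adjusted p up to 0.133), and the difference was 0.052 with quantile normalization (adjusted p = 0.398). The median of the list was -0.018.

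None of the 8 tested probe sets of proteases that cut beta subunits and none of the 12 of regulators of sodium channel transcripts passed in limma, where 0 and 3 had an unadjusted p under 0.05. Over all tested probe sets 4.26% passed and 21% had such a p. The protease differences ran from -0.12 to 0.26, and Bace1, whose product cuts the Scn2b subunit, had a probe set too dim to test. The lowest regulator difference was -0.30 for a probe set of Pum2, a repressor of translation (limma, adjusted p = 0.05995). The highest was 0.40 for a probe set of the splicing factor gene Rbfox1 (limma, adjusted p = 0.107), with means of 41.7 in SHR and 27.5 in WKY. The other tested Pum2 probe sets had -0.042 and -0.079, and the other tested Rbfox1 probe sets had -0.24, -0.14 and -0.0088. Probe sets of Rbfox1 thus disagreed in direction, and those of Pum2 in size. Both probe sets of Rest were too dim to test. With the median-signal covariate the calls of Unc80, Fgf12, Calm2 and both Nrcam probe sets were lost (limma, adjusted p from 0.0524 to 0.446). The differences were then 0.37 ± 0.087 for Unc80, -0.60 ± 0.15 for Fgf12, 0.20 ± 0.092 for Calm2, and -0.31 ± 0.092 and 0.37 ± 0.11 for Nrcam. Those of Unc80 and of the higher Nrcam probe set were thus no smaller than without the covariate, and their SE was larger.

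**Figure D5:**
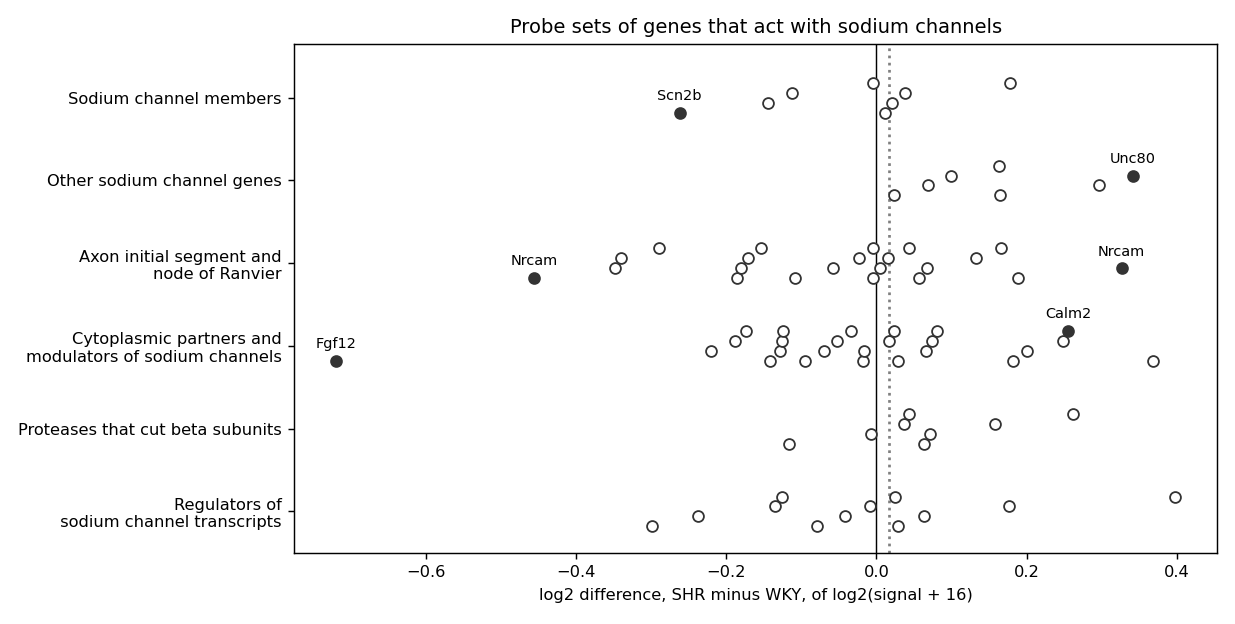
Log2 difference, SHR minus WKY, of every tested probe set of the sodium channel members and of 5 lists of genes that act with them; filled and named points passed the adjusted threshold, and the dotted line is the median of all tested probe sets (0.016). Fgf12 (-0.72) and Unc80 (0.34) lie at the ends of the named points, and Nrcam is named on both sides of 0.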

How the data were processed

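Per the labels' protocols, NTS total RNA went through MessageAmp II amplification before hybridisation to 1-colour arrays. The table as deposited has 1 linear intensity per probe set and array, made by the authors with GCOS 1.2 per the submitters' processing notes; from the values, each array has a mean intensity of 100.0 after trimming 2% at each end. The background step was not given in the sources used here, and detection calls were not used. Control probe sets (57) were left out, and no further scaling was applied. Probe sets with at least 5 arrays at or above the array's 40th percentile were kept. Strain was the single term in limma 3.58.1 (R 4.3.3) on log2(signal + 16), using lmFit, then eBayes with a mean-variance trend, adjusted over 18846 probe sets; the model was tested on simulated data. Old gene symbols were replaced by Entrez match in the GRCr8 RefSeq table. Samples were grouped by title; the unnumbered sample of each strain is called 1, and no batch label is given. At most 2 values were identical in any pair of arrays. The number of arrays limits the precision.

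The members and lists were chosen with earlier results of these data known. Named genes were all members, list members past the threshold, and the 5 probe sets nearest in profile to a member that passed. Nalcn, Scn7a, Ank3, Pum2, Rbfox1, Syn1, Th, Dbh and other probe sets of named genes were named after their values were seen.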

Additional observations from a re-analysis of the deposited data

Results flagged for a closer look

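Scn9a on SHR 2 had a signal of 349, far from the other 4 SHR arrays, which lay between 284 and 296. The gap to the nearest of them was 0.812 of the range of the strain, above the limit of 0.71 for 5 values. Of 30 groups of 5 values examined in this way (10 member probe sets and 5 probe sets of genes that act with them, in each strain), 1 was picked out, and chance picks about 1 in 20.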

How the results depend on the processing

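The limits of the sodium channel results lie in the single Scn2b call. No sodium channel probe set passed without the filter on dim probe sets (0 of 10), without the trend, with the median-signal covariate, without SHR 2 and SHR 3, or by the exact permutation test (0 in each), and with 1 array left out the count was 0 or 1. Scn2b stayed below 0 in all 24 alternatives. The count of all probe sets past the threshold was 207 with the covariate, 512 without SHR 2 and SHR 3, 438 with 1 probe set per gene (10668 tested), 1214 with the replicate number as a block and 0 by the exact permutation test, where 3469 had an unadjusted p under 0.05 and limma called 803; with 1 array left out it ran from 480 to 976. The alpha median minus the beta median was 0.20 without SHR 2 and SHR 3, 0.017 without the filter (5 alpha and 5 beta probe sets) and 0.16 with 1 probe set per gene, and ran from 0.025 to 0.14 with 1 array left out. Signs of differences near 0 turned for the dimmer Scn3b probe set with quantile normalization (0.043) and, with 1 array left out, for that probe set (-0.021 to 0.015), Scn1a (-0.040 to 0.064) and Scn2a (-0.038 to 0.061); the cause was not tested. Of 191 values of member probe sets under alternatives, 171 kept direction and side of the threshold, 10 lost the Scn2b call and 10 turned sign. No label ties same-numbered arrays of the strains to each other. Their deviations correlated at 0.038 to 0.28, and SHR 2, SHR 3 and SHR 5 correlated best with their own number. SHR 1 and SHR 4 did not, and both correlated best with WKY 5, as SHR 5 did. The match of SHR 5 is therefore not particular to its number. Any hint of pairing comes from the data and not from the design. With the replicate block Scn2b had an adjusted p of 0.016, and no other member call changed. Without detection calls, signal over background is unknown and limits what the dim probe sets of Scn8a and Scn2b show.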
